A study of Mus musculus with 6 samples.

Results

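Collagen chain genes were described in cultured mouse neural stem cells of 3 Ecrg4 genotypes. The members were the 36 probes, of 23466 in the array table, whose annotated gene symbol was a collagen chain name (Col, a type number, a and a chain number). They stood for 35 of the 16440 genes named in the annotation, since Col15a1 had 2 probes: 11 probes were of fibrillar chains, 4 of the type IV chains of basement membranes and 21 of other types. The cells came from the brain of C57BL6 mice at postnatal day 0, were kept untreated in DMEM/F12 medium to which heparin and the growth factors bFGF and EGF had been added. The labels call them homozygous, heterozygous or wild type for Ecrg4, which encodes a short secreted peptide precursor, with 2 arrays for each genotype. No source used here says how the Ecrg4 allele was changed or whether a genotype's 2 arrays were of different animals or cultures. The p-values therefore cover the spread between those 2 arrays, which could be technical alone.

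Collagens are secreted proteins of 3 chains wound into a triple helix. Fibrillar types build the cables of connective tissue, type IV builds the sheet of basement membranes, and other types sit on fibrils, form beaded filaments or span the cell membrane. In the brain, collagens are known mostly from the meninges, blood vessels and the basement membranes that neural progenitors touch at the ventricle and the pial surface. Chains are hydroxylated and folded in the endoplasmic reticulum, trimmed and crosslinked outside the cell, and read by integrin and discoidin receptors.

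The values were 1-colour intensities, scaled so that the median of measured probes was 30 on every array, with 21740 to 22561 probes measured per array. The number of arrays limits the precision, and an exact permutation test of 2 arrays against 2 cannot give a p below 0.333. Ecrg4 read 1.4 and 1.3 on the homozygous arrays, 345.5 and 373.9 on the heterozygous arrays and 112.9 and 154.9 on the wild-type arrays. The homozygous label thus matched a near absence of signal. On the heterozygous arrays Ecrg4 exceeded the wild-type level 2.72-fold (limma adjusted p = 0.0395), which is not the order of allele number. The cause of this order was not tested, nor was whether the heterozygous and wild-type labels are right. Every comparison below takes these 2 labels as given. The sign of a difference between heterozygous and wild type rests on them, as does which of these genotypes homozygous is compared with. As a background level, the 95th percentile of 663 olfactory receptor probes was taken on each array, between 50.5 and 57.6. Of 11 neural stem cell marker probes, 9 exceeded it on all 6 arrays.

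Most collagen probes stayed at background in these cells. Of the 36 probes, 26 (72.2%) were below the olfactory receptor level on every array, against 57.8% of all probes on the array, and 6 (16.7%) exceeded it on all 6 arrays, against 35.6% of all probes. The 6 were Col5a1 and Col5a2, chains of the type V collagen that helps to start fibrils, Col16a1, Col14a1 and Col9a3, chains of collagens that attach to fibrils, and Col8a2, a chain of a short network collagen. A further 4 exceeded it on some arrays: Col11a1, Col5a3, Col4a5 and Col9a1. A probe under the level is not shown to lack its transcript.

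**Figure D1:**
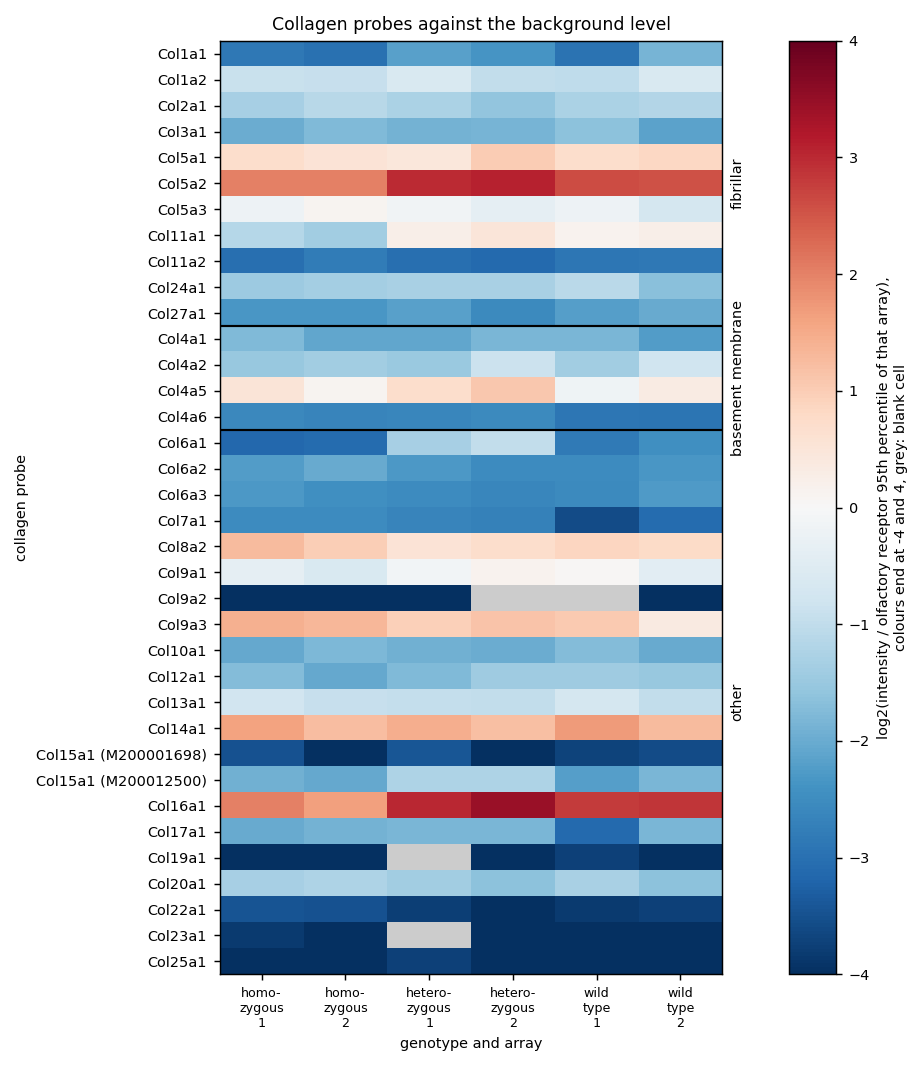
Level of each of the 36 collagen probes (rows, grouped as fibrillar, basement membrane and other) on each of the 6 arrays (columns), as the log2 ratio of its intensity to the olfactory receptor 95th percentile of that array. Red is above and blue below that level, and grey is a blank cell. The 6 rows that are red throughout are Col5a1, Col5a2, Col8a2, Col9a3, Col14a1 and Col16a1.

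The chains of the abundant connective tissue collagens were among those at background. Col1a1, a chain of type I collagen, read 7.1 and 7.1 on homozygous, 11.9 and 9.9 on heterozygous and 6.8 and 15.8 on wild-type arrays. Its partner Col1a2 read between 25.8 and 37.8, and Col3a1, the chain of type III collagen, between 13.1 and 16.9. The genotypes overlapped for all 3 genes between homozygous and wild type. The cartilage chains Col2a1 and Col11a2 read between 17.0 and 26.3 and between 5.8 and 8.2, and the remaining fibrillar chains at background, Col24a1 and Col27a1, between 18.1 and 25.3 and between 8.7 and 14.2.

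A linear model (limma) was fitted to all 20434 probes with a value on all 6 arrays, which included 33 collagen probes, and p-values were adjusted over all of them by the Benjamini-Hochberg method. Between homozygous and heterozygous arrays 4 of the 33 collagen probes passed an adjusted p of 0.05, all lower in homozygous, while 2.69% of all probes passed in either direction and 1.43% in the lower direction, and 7 had an unadjusted p under 0.05, where 18.2% of all probes did. Between homozygous and wild type 1 of 33 passed, lower in homozygous, where 0.920% of all probes passed and 0.489% were lower, and 7 had an unadjusted p under 0.05, where 19.0% of all probes did. Between heterozygous and wild type 0 of 33 passed with limma, where 0.749% of all probes did, and 6 had an unadjusted p under 0.05, where 13.5% of all probes did. The arrays of the genotypes did not overlap for 15 of 33 collagen probes between homozygous and heterozygous (54.6% of all probes), 14 between homozygous and wild type (50.5%) and 12 between heterozygous and wild type (45.5%), so a lack of overlap alone was common. Each genotype's arrays enter 2 of the 3 comparisons, which are not independent.

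Col11a1 encodes a chain of type XI collagen, a minor fibrillar collagen that sets the width of fibrils and can also assemble with chains of type V. Its probe read 23.3 and 21.5 on homozygous, 63.5 and 71.0 on heterozygous and 58.7 and 67.9 on wild-type arrays. Both homozygous arrays were low and lay under the background level, both of the other genotypes lay just over it, and the heterozygous and wild-type arrays overlapped. Col11a1 fell in homozygous against heterozygous by 1.58 ± 0.16 on the log2 scale (SE, n = 2 arrays each, limma adjusted p = 0.0110) and against wild type by 1.50 ± 0.16 (limma adjusted p = 0.0215). Because the homozygous arrays were under the background level, the fold has only a bound, with those arrays set at their olfactory receptor level: at least 1.25-fold lower against heterozygous and at least 1.17-fold against wild type. Between heterozygous and wild type the log2 difference of Col11a1 was 0.09 ± 0.16, with a 95% interval of -0.30 to 0.48. The call against wild type ended without homozygous array 1 (limma adjusted p = 0.174) or 2 (0.197), without heterozygous array 1 or 2 (0.0575 each) and without wild-type array 1 (0.0651). That against heterozygous ended without homozygous array 1 (0.0902) or 2 (0.116) and without heterozygous array 1 (0.0588) or 2 (0.0811).

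Col5a2, which encodes the α2 chain of type V collagen, read 208.3 and 226.2 on homozygous, 424.5 and 424.7 on heterozygous and 320.1 and 337.6 on wild-type arrays. All 6 values were above background, and the 3 genotypes did not overlap, with homozygous lowest and heterozygous highest. It fell in homozygous against heterozygous by 0.97 ± 0.14 on the log2 scale, which is 1.96-fold lower (n = 2 arrays each, limma adjusted p = 0.0295). Against wild type the log2 difference of Col5a2 was -0.60 ± 0.14, which missed the threshold (limma adjusted p = 0.117), and between heterozygous and wild type it was 0.37 ± 0.14 (0.347). The call against heterozygous ended without homozygous array 1 (limma adjusted p = 0.214) or 2 (0.190), without heterozygous array 1 (0.131) or 2 (0.158), and with blank cells filled (0.0501).

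The other chains of type V did not share this difference at the threshold. Col5a1, the chain that pairs with Col5a2 in the most common form of type V, read 83.2 and 82.7 on homozygous, 74.7 and 101.9 on heterozygous and 87.0 and 102.2 on wild-type arrays. Its log2 difference between homozygous and heterozygous was -0.07 ± 0.20, with a 95% interval of -0.55 to 0.41, and between homozygous and wild type it was -0.18, with an interval of -0.66 to 0.29. Col5a3, the chain of a rarer form, read 44.7 and 61.3 on homozygous, 49.4 and 39.4 on heterozygous and 45.9 and 35.0 on wild-type arrays, and only homozygous array 2 exceeded the background level. A difference between Col5a2 and its partner chains was not tested.

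Col16a1, which encodes the chain of type XVI collagen, a collagen that attaches to fibrils and is anchored near cells, read 207.4 and 175.5 on homozygous, 436.4 and 555.0 on heterozygous and 368.8 and 421.8 on wild-type arrays. Every array was above background and the homozygous arrays were lowest, with no overlap between any of the genotypes. Col16a1 was 2.58-fold lower in homozygous than in heterozygous arrays (log2 difference -1.37 ± 0.19, n = 2 arrays each, limma adjusted p = 0.0248). Against wild type the log2 difference was -1.05 ± 0.19, which missed the threshold (limma adjusted p = 0.0729), and between heterozygous and wild type 0.32 ± 0.19 (0.479). Without homozygous array 1 (limma adjusted p = 0.133) or 2 (0.197), or heterozygous array 1 (0.0716) or 2 (0.130), the call for Col16a1 against heterozygous ended. When dim probes were left out of the test, both Col5a2 (limma adjusted p = 0.0289) and Col16a1 (0.0143) passed against wild type.

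Col6a1, a chain of the beaded filament collagen type VI, read 5.8 and 6.7 on homozygous, 21.5 and 25.7 on heterozygous and 7.4 and 10.5 on wild-type arrays. The heterozygous arrays stood apart, but all 6 values were under the background level, so no fold is given. On the measured values it fell in homozygous against heterozygous by 1.91 ± 0.22 on the log2 scale (n = 2 arrays each, limma adjusted p = 0.0143). That size depends on the scale at these low values: with a pseudocount of 16 the log2 difference of Col6a1 was -0.83, and 0.67 in place of 1.42 for heterozygous against wild type. Against wild type the log2 difference of heterozygous was 1.42 ± 0.22 (limma adjusted p = 0.0627) and that of homozygous was -0.50 ± 0.22 (0.285). The call ended without homozygous array 1 (limma adjusted p = 0.126) or 2 (0.116) or heterozygous array 1 (0.0648) or 2 (0.0962), and the difference between heterozygous and wild type passed without wild-type array 2 (0.0441). The partner chains Col6a2 and Col6a3, which type VI needs beside Col6a1, read between 8.8 and 14.1 and between 8.2 and 11.9, also under background, with log2 differences between homozygous and heterozygous of 0.32 ± 0.22 and 0.24 ± 0.18.

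**Figure D2:**
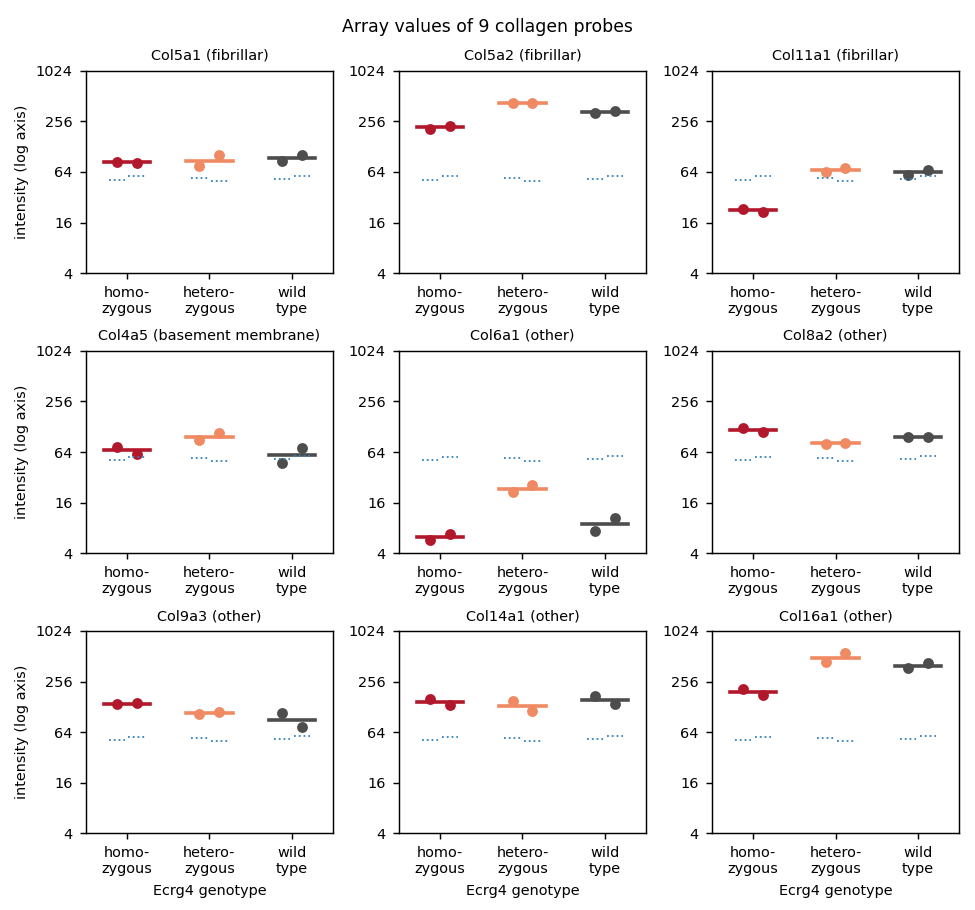
Intensity (log axis) of 9 collagen probes on the 2 arrays of each genotype. Points are arrays, solid bars are geometric means and dotted lines are the olfactory receptor level of each array. Homozygous points are below those of both other genotypes for Col5a2, Col11a1, Col6a1 and Col16a1, and the Col6a1 points are all under the dotted lines.

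RefSeq promoter entries (build GRCm38.p6) existed for 28 of the 35 collagen genes. The promoters of the genes that passed between homozygous and heterozygous are shown, and Col5a2 is named only. Each run holds the 250 bases before the annotated start, 5′ to 3′ on the gene's strand, at chr3:114030290-114030539 (+) for Col11a1, chr4:130047590-130047839 (+) for Col16a1 and chr10:76726045-76726294 (-) for Col6a1. Capitals mark a GC box (GGGCGG, or CCGCCC on the other strand) or a CCAAT box (CCAAT, or ATTGG on the other strand), elements that many promoters carry.
Col11a1: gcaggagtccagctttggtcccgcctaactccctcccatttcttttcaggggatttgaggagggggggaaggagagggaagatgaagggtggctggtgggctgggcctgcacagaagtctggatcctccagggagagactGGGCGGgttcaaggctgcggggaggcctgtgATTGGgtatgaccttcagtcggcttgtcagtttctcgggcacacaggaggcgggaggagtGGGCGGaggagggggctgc
Col16a1: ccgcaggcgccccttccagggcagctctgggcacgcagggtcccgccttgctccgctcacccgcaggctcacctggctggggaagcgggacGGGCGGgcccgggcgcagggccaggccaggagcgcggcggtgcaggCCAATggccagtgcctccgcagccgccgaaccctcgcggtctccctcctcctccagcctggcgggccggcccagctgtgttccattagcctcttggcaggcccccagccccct
Col6a1: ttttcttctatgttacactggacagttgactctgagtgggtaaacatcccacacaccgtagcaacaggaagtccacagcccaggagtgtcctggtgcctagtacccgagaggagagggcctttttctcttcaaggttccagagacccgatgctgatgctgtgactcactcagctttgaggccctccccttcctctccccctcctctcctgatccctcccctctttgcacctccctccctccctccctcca
The Col11a1 run held 2 GC boxes and 1 CCAAT box, and the Col16a1 run held 1 of each, with no overlap between motifs. Neither motif was found in the Col6a1 run. Of 32851 promoters of the same length, 32.7% held a GC box, 33.8% a CCAAT box and 11.0% both, so these matches are common and are given as a description. Where the probes lie on their transcripts was not analysed here.

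The basement membrane chains showed no call with limma in any of the 3 comparisons, and 1 of the 4, Col4a5, had an unadjusted p under 0.05, between heterozygous and wild type. Col4a1 and Col4a2, the chains of the type IV network found in most basement membranes, read between 12.2 and 15.1 and between 18.1 and 33.4, all under background. Col4a1 had a log2 difference of 0.07 ± 0.17 between homozygous and wild type, with a 95% interval of -0.35 to 0.49. Col4a5 read 73.7 and 61.3 on homozygous, 87.8 and 106.9 on heterozygous and 47.2 and 72.1 on wild-type arrays. Wild-type array 1 was its lowest value and the heterozygous arrays were its highest, without overlap with either other genotype. The log2 difference of Col4a5 was 0.73 ± 0.25 between heterozygous and wild type (limma adjusted p = 0.302) and -0.53 ± 0.25 between homozygous and heterozygous (0.329). Col4a6 read between 7.2 and 9.1.

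Among the remaining collagens above background, 3 did not differ at the threshold. Col9a3, a chain of type IX collagen, read 137.4 and 142.5 on homozygous, 104.0 and 112.3 on heterozygous and 109.4 and 73.2 on wild-type arrays. The homozygous arrays were higher than both other genotypes, with a log2 difference against wild type of 0.64 ± 0.22 (limma adjusted p = 0.195). Col8a2, known from the basement membrane under the corneal endothelium, read 123.4 and 112.3 on homozygous, 79.8 and 82.0 on heterozygous and 97.2 and 97.0 on wild-type arrays. It too was highest on the homozygous arrays, the opposite order to Col5a2, with a log2 difference against heterozygous of 0.54 ± 0.14 (limma adjusted p = 0.123, and 0.0348 with dim probes left out of the test). Col14a1 read 157.8 and 133.6 on homozygous, 148.4 and 115.2 on heterozygous and 171.0 and 137.9 on wild-type arrays, which overlapped throughout, and its log2 difference between homozygous and wild type was -0.08 with a 95% interval of -0.58 to 0.41.

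Other chains were dim. Col9a1 read 40.2 and 36.9 on homozygous, 50.3 and 55.5 on heterozygous and 54.7 and 42.6 on wild-type arrays, so its homozygous arrays were low by 0.46 ± 0.18 log2 units against heterozygous (limma adjusted p = 0.255). Col9a2, Col19a1 and Col23a1 had blank cells and were not tested, and their measured values lay between 1.8 and 4.0. The 2 probes of Col15a1 disagreed: 1 had a log2 difference between homozygous and heterozygous of -0.71 ± 0.20 (limma adjusted p = 0.134) and the other of 0.18 ± 0.36 (0.845), and both were dim. Col25a1, a membrane collagen of neurons, read 3.0 and 3.1 on homozygous, 4.1 and 2.2 on heterozygous and 1.6 and 1.2 on wild-type arrays, values near the lowest on the arrays. Of the remaining dim chains, Col7a1 of anchoring fibrils read between 4.4 and 9.8 and had a log2 difference between homozygous and wild type of 0.77 ± 0.23 (limma adjusted p = 0.168). Col12a1, a fibril-associated chain, read 15.3 and 13.7 on homozygous, 16.1 and 18.9 on heterozygous and 19.8 and 20.2 on wild-type arrays. The ranges over the 6 arrays were 12.3 to 16.1 for Col10a1, 25.6 to 32.6 for Col13a1, 6.1 to 16.2 for Col17a1, 16.2 to 24.0 for Col20a1 and 1.9 to 5.0 for Col22a1, and none of these passed in any comparison.

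The median log2 difference over the 33 tested probes was -0.03 between homozygous and wild type, beside 0.02 over all tested probes, -0.05 between heterozygous and wild type, beside -0.01, and 0.05 between homozygous and heterozygous, beside 0.04. With dim probes left out, which kept 9 collagen probes, these medians were -0.18, 0.13 and -0.46, with the sign turned in both comparisons with heterozygous arrays. That filter draws on the compared values. It kept Col11a1 and Col9a1 only through heterozygous and wild-type arrays, and dropped Col5a3, over background on a homozygous array alone. The 6 collagen probes above background on all arrays had medians of -0.13, 0.08 and 0.04, beside -0.01, 0.03 and -0.04 over all such probes. No direction of the collagens is read from the filtered medians. Of the 11 fibrillar chains 10 were below 0 between homozygous and wild type, with a median of -0.14, where 47.8% of all probes were below 0, but 7 of the 11 probes were under background on every array. That median was -0.30 without wild-type array 1, -0.07 without wild-type array 2, -0.09 without homozygous array 1 and -0.21 without homozygous array 2. The 18 other chains were split 8 above and 10 below 0, with a median of -0.01, and 3 of 4 basement membrane chains were above 0, with a median of 0.14. Between homozygous and heterozygous the fibrillar chains were split 5 above and 6 below 0 (median -0.07), the other chains 12 above and 6 below (0.16) and the basement membrane chains 1 above and 3 below (-0.12). Homozygous arrays were lowest, without overlap with either other genotype, for 6 of 33 collagen probes (Col5a2, Col6a1, Col9a1, Col11a1, Col12a1 and Col16a1), where 13.2% of all probes met that description. Arrays of 1 genotype differed by a median of 0.16 log2 units over the collagens in homozygous, 0.23 in heterozygous and 0.32 in wild type.

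**Figure D3:**
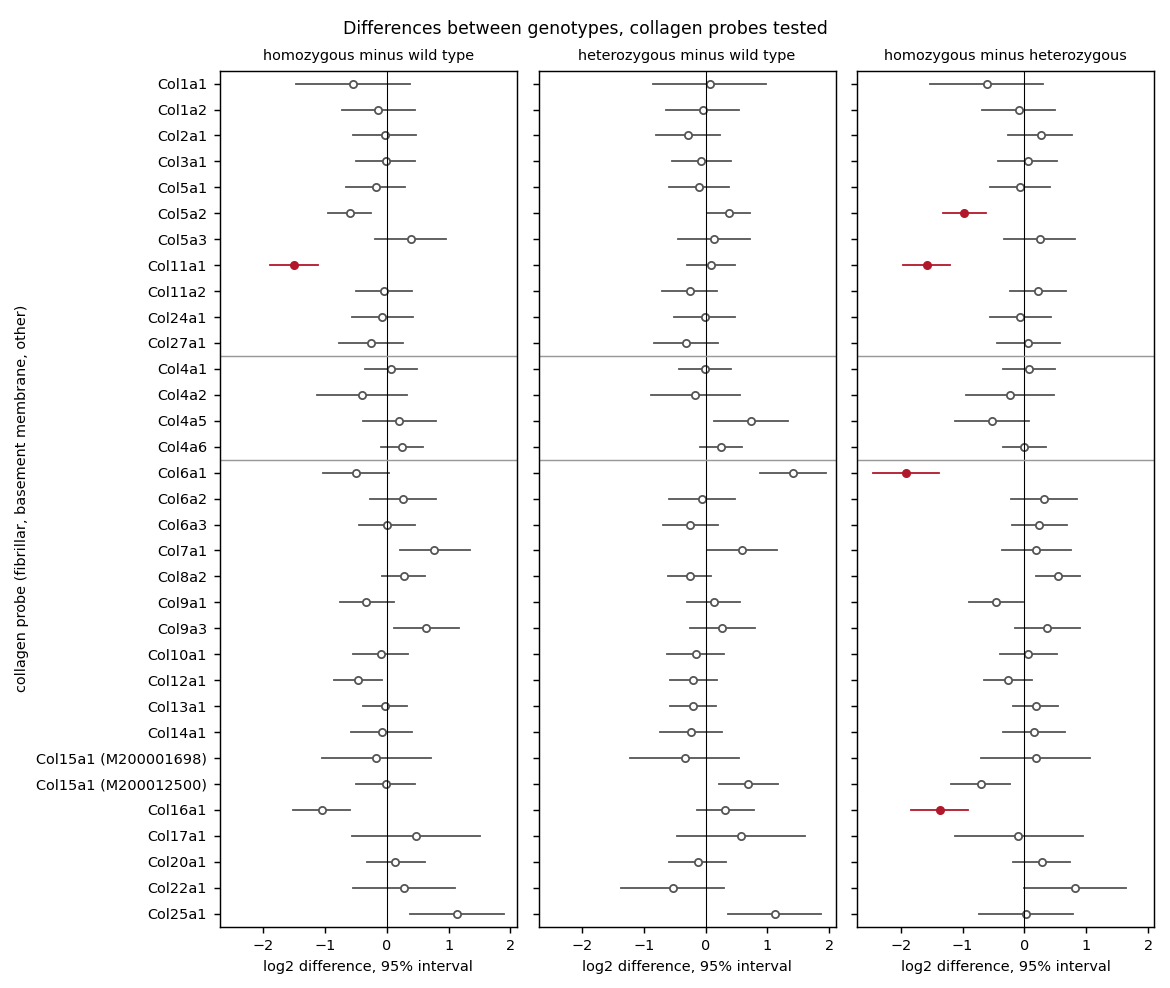
Log2 difference with its 95% interval for the 33 tested collagen probes in the 3 comparisons, grouped by class from top to bottom. Filled red points passed an adjusted p of 0.05. These are Col11a1 in homozygous minus wild type, and Col5a2, Col11a1, Col6a1 and Col16a1 in homozygous minus heterozygous, all below 0.

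The genes that make, bind and cut collagens were examined by list. Of 21 tested probes of modification and folding genes, 14 exceeded background on all arrays, and 1 passed in 1 comparison: Plod1, a lysyl hydroxylase that prepares collagen for crosslinking. Plod1 read 268.2 and 267.3 on homozygous, 458.5 and 525.4 on heterozygous and 439.9 and 506.4 on wild-type arrays. It fell in homozygous against heterozygous by 0.87 ± 0.16 on the log2 scale (n = 2 arrays each, limma adjusted p = 0.0493) and gave -0.82 ± 0.16 against wild type (0.0799). Its call ended without homozygous array 1 (0.260) or 2 (0.287), without heterozygous array 1 (0.137) or 2 (0.243) and with blank cells filled (0.0766). Of the 21 probes, 8 had an unadjusted p under 0.05 between homozygous and heterozygous, 7 between homozygous and wild type and 0 between heterozygous and wild type, where 18.2%, 19.0% and 13.5% of all probes did. The median log2 difference of this list was -0.25 between homozygous and heterozygous and -0.20 between homozygous and wild type. The prolyl hydroxylase gene P4ha2, named after its values were seen, read 24.5 and 11.3 on homozygous, 55.3 and 49.4 on heterozygous and 45.6 and 66.8 on wild-type arrays and did not pass (limma adjusted p = 0.0898 against heterozygous).

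Of 14 tested probes of processing and crosslinking genes, Loxl3 passed, a lysyl oxidase that crosslinks collagen. An unadjusted p under 0.05 was reached by 9 of the 14 between homozygous and heterozygous (18.2% of all probes), 4 between homozygous and wild type (19.0%) and 4 between heterozygous and wild type (13.5%). The list's median log2 difference between homozygous and heterozygous was -0.43, beside 0.04 over all probes. However, 10 of the list's 15 probes were under background on every array and 2 exceeded it on all 6, so these figures rest mostly on dim probes. Loxl3 read 19.9 and 20.4 on homozygous, 50.6 and 56.7 on heterozygous and 47.3 and 46.5 on wild-type arrays, with 1 of the 6 values over background. On the measured values Loxl3 fell in homozygous by 1.41 ± 0.15 log2 units against heterozygous (n = 2 arrays each, limma adjusted p = 0.0113) and by 1.22 ± 0.15 against wild type (0.0280). The call against heterozygous ended without homozygous array 1 (0.109) or 2 (0.116) or heterozygous array 1 (0.0613) or 2 (0.0855). Leaving out any 1 of the 6 arrays ended that against wild type, with adjusted p between 0.0509 (without wild-type array 2) and 0.225 (without homozygous array 1 or 2), and so did filling blank cells (0.0531).

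Matn2, a matrix adaptor protein that binds collagens, moved the other way. It read 271.7 and 319.9 on homozygous, 94.0 and 118.4 on heterozygous and 76.4 and 82.0 on wild-type arrays, all over background. Matn2 rose 2.79-fold in homozygous against heterozygous (log2 difference 1.48 ± 0.18, n = 2 arrays each, limma adjusted p = 0.0166) and 3.72-fold against wild type (1.90 ± 0.18, 0.0165), the only member of 9 tested small matrix protein probes to pass. Of the 9, an unadjusted p under 0.05 was reached by 3 between homozygous and heterozygous, 5 between homozygous and wild type and 1 between heterozygous and wild type, where 18.2%, 19.0% and 13.5% of all probes did. In this list 8 of 10 probes were under background on every array. The call against wild type ended without homozygous array 1 (0.131) or 2 (0.169) or wild-type array 1 (0.0840), and that against heterozygous without homozygous array 1 (0.109) or 2 (0.158) or heterozygous array 1 (0.0852) or 2 (0.0685).

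Among 6 tested protease probes Mmp14 passed, a membrane-bound enzyme that cuts fibrillar collagen and activates Mmp2. It read 45.9 and 36.2 on homozygous, 62.2 and 78.5 on heterozygous and 13.5 and 15.1 on wild-type arrays, so that only the heterozygous arrays exceeded background. Mmp14 rose by 2.29 ± 0.20 log2 units in heterozygous against wild type (limma adjusted p = 0.0105, n = 2 arrays each), with a bound of at least 1.26-fold, and by 1.51 ± 0.20 in homozygous against wild type (0.0364), where both genotypes were under background. The first of these calls ended without heterozygous array 2 (0.0779) or wild-type array 1 (0.0767), and the second without any 1 of the arrays, with adjusted p between 0.0610 (without wild-type array 2) and 0.242 (without homozygous array 1), and with blank cells filled (0.0664). Of the 6 protease probes, an unadjusted p under 0.05 was reached by 2 between homozygous and heterozygous, 2 between homozygous and wild type and 1 between heterozygous and wild type, beside the same shares of all probes (18.2%, 19.0% and 13.5%). None of 8 tested collagen receptor probes passed with limma in any comparison, and 1 had an unadjusted p under 0.05, between homozygous and wild type, where 0.920% of all probes passed and 19.0% had such a p. The integrin chain gene Itgb1, shared by the collagen-binding integrins, read 1287 and 1321 on homozygous, 1236 and 1455 on heterozygous and 818.8 and 1185 on wild-type arrays. The collagen receptor kinase gene Ddr1 read between 288.7 and 313.8 on the 6 arrays, with a log2 difference of -0.02 ± 0.14 between homozygous and heterozygous.

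Of 11 basement membrane partners, 0 passed with limma in any comparison, and 3 had an unadjusted p under 0.05 between homozygous and heterozygous, 1 between homozygous and wild type and 2 between heterozygous and wild type. Over all probes 18.2%, 19.0% and 13.5% had such a p in these comparisons, and 2.69%, 0.920% and 0.749% passed. Nid1, which links laminin to type IV collagen, read 85.0 and 78.8 on homozygous, 214.7 and 231.3 on heterozygous and 96.5 and 171.0 on wild-type arrays. The homozygous arrays were lowest and the log2 difference against heterozygous was -1.45 ± 0.27 (limma adjusted p = 0.0551). In other settings of this comparison Nid1 passed, among them median centring (0.0270), quantiles (0.0347), cyclic loess (0.0339) and the compared genotypes alone (0.0184). It missed the threshold with blank cells filled (0.0839), with the replicate block (0.0905) and without any 1 homozygous or heterozygous array (log2 difference between -1.50 and -1.39). Smoc1, a secreted basement membrane protein, read 525.3 and 590.2 on homozygous, 678.0 and 694.1 on heterozygous and 301.4 and 635.9 on wild-type arrays. Pxdn, the enzyme that crosslinks type IV collagen, read between 93.1 and 145.4, and both genes overlapped between homozygous and wild type.

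**Figure D4:**
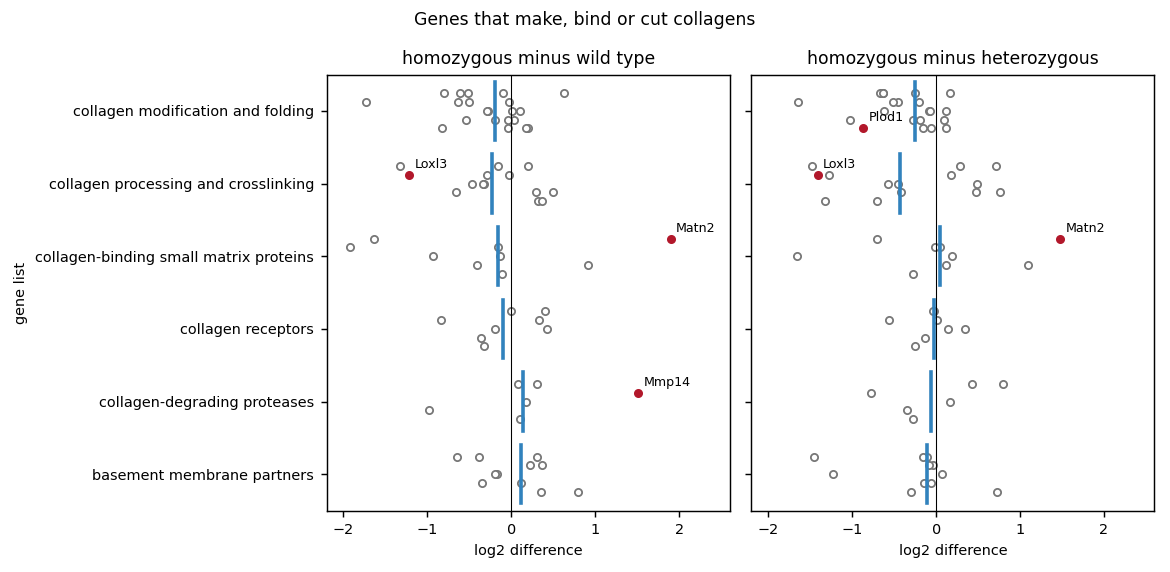
Log2 difference of each tested probe in 6 lists of genes that modify, process, bind or cut collagens, or share basement membranes with them, for homozygous minus wild type (left) and homozygous minus heterozygous (right). Filled red points passed an adjusted p of 0.05 and are named, and blue bars are list medians. Loxl3 lies below 0 and Matn2 above 0 in both panels, Mmp14 is above 0 on the left and Plod1 is below 0 on the right.

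Markers of other cells that make collagen were read beside these results. In bulk samples fewer cells of a type and less RNA per cell cannot be told apart. Over all probes 2.69% passed between homozygous and heterozygous, 0.920% between homozygous and wild type and 0.749% between heterozygous and wild type. In that order 18.2%, 19.0% and 13.5% had an unadjusted p under 0.05. Such a p was reached by 3, 1 and 1 of 8 meningeal and 1, 2 and 2 of 7 smooth muscle probes. For neuron and microglia probes it was 2, 2 and 0 of 6 and 2, 2 and 1 of 5. Of 8 tested meningeal and fibroblast marker probes 1 passed: Foxc1, which read 19.0 and 23.0 on homozygous, 44.0 and 39.2 on heterozygous and 38.6 and 34.8 on wild-type arrays, under background, and was lower in homozygous than in heterozygous by 0.99 ± 0.17 log2 units (limma adjusted p = 0.0438, between 0.0515 and 0.255 without any 1 array, and 0.0691 with blank cells filled). The summed level of that list was 287 and 284 on homozygous, 360 and 335 on heterozygous and 276 and 326 on wild-type arrays, and 8 of its 10 probes, Dcn and Lum among them, were under background on every array. None of 8 tested pericyte marker probes passed with limma, with 1 at an unadjusted p under 0.05 in each comparison against wild type and 0 between homozygous and heterozygous, and their sum was between 139 and 217. None of 5 endothelial probes passed either (1 unadjusted between homozygous and wild type, 2 between heterozygous and wild type, 0 between homozygous and heterozygous), and 8 of 9 were under background on every array. Of 7 smooth muscle markers Acta2 passed, with 88.0 and 118.5 on homozygous, 277.5 and 284.6 on heterozygous and 1230 and 894.8 on wild-type arrays, and its log2 difference between homozygous and wild type was -3.36 ± 0.22 (limma adjusted p = 0.00583, and 0.0845 or 0.0917 without homozygous array 1 or 2). That list summed to 209 and 253 on homozygous, 400 and 391 on heterozygous and 1410 and 1042 on wild-type arrays, where Acta2 alone made up most of it. The list's median log2 difference was 0.01 between homozygous and wild type, -0.26 between heterozygous and wild type and -0.08 between homozygous and heterozygous. Of its 7 probes, 4 were under background on every array. Acta2 was also lower in homozygous than in heterozygous arrays, the comparison in which the 4 collagens passed, by 1.46 log2 units (limma adjusted p = 0.0325, between 0.128 and 0.197 without any 1 homozygous or heterozygous array, and 0.0541 with blank cells filled). Acta2, like Col5a2, Col16a1, Col11a1 and Col6a1, was lowest on the homozygous arrays, but its order over the other genotypes was not theirs. Between heterozygous and wild type Acta2 had a log2 difference of -1.9 (limma adjusted p = 0.0264). This call ended with the compared genotypes alone (0.0717) and with the replicate block (0.0806). Without any 1 array the difference was between -2.13 and -1.67. In the same comparison, with all arrays, the collagens had 0.37 (Col5a2), 0.32 (Col16a1), 0.09 (Col11a1) and 1.42 (Col6a1), none of which passed. Among 6 neuron markers Elavl4 was higher in homozygous than in heterozygous (limma adjusted p = 0.0305) and wild type (0.0403). These Elavl4 calls ended without either homozygous or heterozygous array (adjusted p between 0.0803 and 0.273), and the call against wild type also without wild-type array 1 (0.0793) or 2 (0.0611). With blank cells filled they ended too (0.0513 against heterozygous and 0.0718 against wild type). Among 5 microglia markers P2ry12 and Cx3cr1 passed, both under background on every array and in opposite directions. P2ry12 had a log2 difference of 1.98 in homozygous minus wild type (limma adjusted p = 0.0221) and 1.62 in homozygous minus heterozygous (0.0218). Cx3cr1 had -1.3 in heterozygous minus wild type (0.0374) and -0.69 in homozygous minus wild type (0.125). With a pseudocount of 16 these differences were 0.54, 0.47, -0.37 and -0.22. The Cx3cr1 call held with median centring (limma adjusted p = 0.0318) and cyclic loess (0.0444). It ended with quantiles (0.0518), the pseudocount (0.12), blank cells filled (0.0662) and the replicate block (0.0795). Both P2ry12 calls held with blank cells filled (0.0428 against wild type and 0.0388 against heterozygous) and ended with the replicate block (0.0724 and 0.0586). Of 5 oligodendrocyte markers 0 passed (1 unadjusted in each comparison with homozygous). No marker was listed at 0. The part of these cells in the collagen differences was not tested.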

How the data were processed

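The authors deposited 1-colour intensity values, read from the values as scaled to a median of 30 on each array. Per the labels' protocols, total RNA was amplified to amino allyl aRNA and coupled to a dye, while the same labels name biotin. The sources used here do not give the scanner, the background correction or the rule for blank cells. Of 23466 probes, 20434 had a value on all 6 arrays and were tested on the log2 scale, without a pseudocount, and 3032 were not. A limma 3.58.1 model in R 4.3.3 (lmFit, contrasts.fit, eBayes; 3 residual and 3.27 prior degrees of freedom) held all 6 arrays with 1 coefficient per genotype. Tests were two-sided, with Benjamini-Hochberg adjustment over all tested probes and a threshold of 0.05. Errors are standard errors of the fit.

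Gene symbols were those of the array annotation and, for gene lists, were updated through RefSeq synonyms. The members, lists and background level were chosen with earlier results of these data known. Array values are given for collagen probes past the threshold, above background on all 6 arrays, or among the 3 largest differences of a comparison with 1 genotype above background, and others by range or after their values were seen. Lists name passing members, or else up to 3 members with the largest difference. A bound sets arrays under background at their background level and uses geometric means. The fit was tested on simulated data.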

Additional observations from a re-analysis of the deposited data

How the results depend on the processing

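Scaling by median centring, quantiles or cyclic loess left the collagen calls between homozygous and wild type (Col11a1) and between homozygous and heterozygous (Col5a2, Col6a1, Col11a1 and Col16a1) in place, and added 1 call, Col6a1, between heterozygous and wild type. No named probe changed direction with a call. The causes of the changes below were not tested, except where fewer arrays or probes entered by construction.

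Dim probes are those above background on fewer than 2 arrays, and blank cells were filled with the lowest value of their array. Between homozygous and wild type the 1 collagen call became 3 with a pseudocount of 16, with dim probes left out and under a prior that is robust and follows intensity (the trend below). It became 0 when the fit held only the compared genotypes. Between heterozygous and wild type the 0 calls became 1 with the pseudocount and with the trend. The median collagen difference with dim probes left out was -0.18 in homozygous minus wild type, 0.13 for heterozygous minus wild type and -0.46 for homozygous minus heterozygous, and the last was -0.05 with quantiles and -0.06 with cyclic loess. Leaving out dim probes can keep a probe only through the genotypes where it is high, so no direction is read from those medians.

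All probes called between homozygous and wild type were 188, against 314 with median centring, 328 with quantiles, 313 with cyclic loess, 1143 with the pseudocount, 88 with blank cells filled, 849 without dim probes, 1094 with the trend and 59 with the compared genotypes alone. They were 306 (pseudocount), 400 (trend) and 40 (compared genotypes alone) between heterozygous and wild type, against 153, and 1376 (pseudocount), 320 (blank cells filled), 974 (without dim probes) and 1357 (trend) between homozygous and heterozygous, against 549.

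Where 1 array was left out, the lone array of its genotype was assumed to vary like the others. Collagen calls then ranged from 0 to 1 between homozygous and wild type, 0 to 1 between heterozygous and wild type and 0 to 4 between homozygous and heterozygous. The collagen medians ranged from -0.13 to 0.02, from -0.08 to 0.04 and from -0.05 to 0.15 in the same order, and all probes called from 1 to 224, from 18 to 340 and from 6 to 680.

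The replicate numbers of the labels were also fitted as a block. The deviations of same-numbered arrays had correlations of -0.08, 0.01 and 0.02, so no deviation over all tested probes was shared by number. An effect on fewer probes would not show there, and the sources used here do not say what the numbers stand for. With the replicate block 47, 51 and 244 probes were called, and 0, 0 and 2 collagen probes (Col6a1 and Col11a1).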

Other observations

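After symbols were updated through RefSeq, 3 more probes had collagen names. Col26a1 read 41.0 and 44.4 on homozygous, 29.1 and 28.6 on heterozygous and 34.2 and 37.7 on wild-type arrays, under the background level throughout. Its log2 difference between homozygous and heterozygous was 0.56 ± 0.15 (limma adjusted p = 0.118), with homozygous highest and heterozygous lowest and no overlap. Col6a4 read between 1.8 and 2.8, and Col6a6 had a value on 3 of the 6 arrays, between 1.3 and 1.9.

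Sparc, a collagen-binding glycoprotein named here after its values were seen, read 2710 and 3325 on homozygous, 1336 and 1464 on heterozygous and 1222 and 2094 on wild-type arrays. Its log2 difference against heterozygous was 1.10 ± 0.27 and did not pass (limma adjusted p = 0.107). Of 11 neural stem cell marker probes, 3 had an unadjusted p under 0.05 between homozygous and heterozygous, 3 between homozygous and wild type and 2 between heterozygous and wild type. Over all probes 18.2%, 19.0% and 13.5% did in these comparisons, and 2.69%, 0.920% and 0.749% passed. The neural stem cell markers summed to 68949 and 68580 on homozygous, 65026 and 62027 on heterozygous and 66557 and 64331 on wild-type arrays, and 1 of 11 probes passed, Notch1, lower in homozygous than in heterozygous by 0.81 ± 0.14 log2 units (limma adjusted p = 0.0450, between 0.157 and 0.286 without 1 homozygous or heterozygous array, and 0.0711 with blank cells filled).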
